A study of Mus musculus with 6 samples.

Results

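Proliferating nuclei of the mouse tibial periosteum were taken as the nuclei in which unique molecular identifiers (UMIs, 1 per captured transcript) of Mki67 and Top2a summed to 2 or more, and 424 of 8073 nuclei in 6 libraries met this rule (cycling nuclei in the plots). They were therefore chosen by measured transcripts, and every value of Mki67 and Top2a below is a description. The libraries came from C57BL6 mice (C57BL/6ScNj in the study's methods) of 12 weeks, males and females mixed. Uninjured periosteum was pooled from 4 mice, and for the injured groups tibias of 4 to 9 mice with an open, non-stabilized fracture were pooled at 3, 5 or 7 days, the periosteum being collected together with the hematoma. Uninjured periosteum and day 3 post-fracture had 2 libraries each, day 5 and day 7 post-fracture had 1 each, and nuclei labelled with a DNA dye were sorted before droplet sequencing. On GRCm38, Mki67 lies at chr7:135689784-135716361, minus strand, and Top2a at chr11:98992943-99024189, minus strand. A library is a pool of mice, so no value below holds the spread between animals, and intervals cover counting error only.

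Ki-67, the protein of Mki67, coats mitotic chromosomes and is made in cycling cells and lost in resting ones. Top2a encodes topoisomerase II alpha, which untangles sister chromatids and is made from S phase to mitosis. A dividing cell first switches on the DNA replication genes, then the genes of the spindle, the kinetochore and cytokinesis. After a fracture, resting progenitors of the periosteum are activated and divide, while blood-borne immune cells fill the hematoma.

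Proliferating nuclei were rare in uninjured periosteum, made up the largest shares at days 3 and 5 post-fracture, and were fewer at day 7. In uninjured periosteum 1 of 644 nuclei met the rule in replicate 1, a share of 0.155% (exact Clopper-Pearson 95% interval 0.00393 to 0.862%), and 5 of 1182 in replicate 2, a share of 0.423% (0.137 to 0.984%). At day 3 post-fracture 52 of 753 nuclei met it in replicate 1, a share of 6.91% (5.20 to 8.96%), and 167 of 1720 in replicate 2, a share of 9.71% (8.35 to 11.2%). At day 5 the share was 7.06% (171 of 2423, 6.07 to 8.15%) and at day 7 it was 2.07% (28 of 1351, 1.38 to 2.98%). The day 3 libraries were thus both above both uninjured libraries, with 8.31 ± 1.98% against 0.289 ± 0.189% (mean ± SD, n = 2 libraries each), a difference of 8.02 percentage points. A permutation test of 2 against 2 libraries cannot go below p = 0.33, so this difference was not tested, nor were those with days 5 and 7, which had 1 library each.

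**Figure D1:**
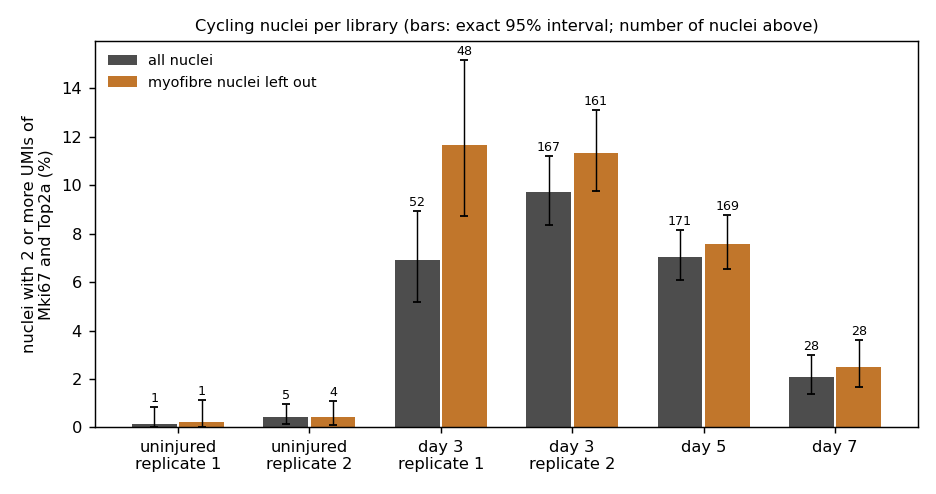
Share of nuclei that were proliferating (%, vertical axis) in each of the 6 libraries, with exact 95% intervals that cover counting error only. Both uninjured libraries lie under 0.5%, the day 3 libraries at 6.91% and 9.71%, day 5 at 7.06% and day 7 at 2.07%.

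Counting software and depth differed between libraries. Within Cell Ranger 7.1.0, uninjured replicate 2 had 0.423% and the day 3 libraries 6.91% and 9.71%, and within Cell Ranger 6.0.0, uninjured replicate 1 had 0.155%, day 5 had 7.06% and day 7 had 2.07%. Any difference between day 3 and the later days cannot be told apart from the software version. When each nucleus was thinned to 1000 UMIs and 1 UMI of either gene was asked for, uninjured periosteum had 0.261% and 1.13%, day 3 had 8.17% and 10.1%, day 5 had 6.37% and day 7 had 3.59%, with 261, 210, 19, 210, 368 and 516 shallower nuclei left out in that order. Day 5 then lay below both day 3 libraries, where without thinning it lay between them, and the uninjured libraries remained lowest. The limits on barcodes mattered as well. In day 3 replicate 2, 134 of 245 barcodes over the limit of 5000 genes, which are not counted above, met the rule too, and with no upper limit the difference between day 3 and uninjured was 10.8 percentage points. At day 7 the share was 7.23% when up to 5% mitochondrial and any ribosomal UMIs were allowed, and 202 of the 221 added members held no UMI of the 4 lineage markers.

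Skeletal muscle fibre nuclei do not divide, so nuclei rich in muscle RNA were looked at as a background. Called muscle fibre nuclei here, they had 1% or more of their UMIs from Ttn and Neb, genes of giant sarcomere proteins. This cut does not separate fibre nuclei from other nuclei that hold muscle RNA. Leaving them out took mesenchymal members, by the lineage rule given below, from 32 to 30 and 110 to 105 at day 3. At day 5 it took them from 139 to 138. Their shares are therefore no measured level of free RNA. Of such nuclei 4 of 342 met the rule in day 3 replicate 1 (1.17%), 6 of 302 in day 3 replicate 2 (1.99%), 2 of 196 in the day 5 library (1.02%) and 0 of 235 in that of day 7. Before fracture it was met by 0 of 156 and 1 of 252. Their median depth was above that of the other nuclei in each library, for example 6400 against 3812 UMIs in day 3 replicate 2 and 1696 against 1244 at day 7. The share in muscle fibre nuclei was below the share over all nuclei in the 4 post-fracture libraries, at higher depth. With muscle fibre nuclei left out, the day 3 libraries had 11.7% (48 of 411) and 11.4% (161 of 1418), which lay closer to each other than before, and days 5 and 7 had 7.59% and 2.51%.

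The proliferating nuclei carried few UMIs of the genes that chose them. Mki67 gave 76 UMIs in the members of day 3 replicate 1, 416 in those of day 3 replicate 2, 273 at day 5 and 44 at day 7, and Top2a gave 128, 595, 612 and 58. The median sum was 3, 4, 4 and 3 UMIs per member in these libraries and the highest sum was 48, in day 3 replicate 2. Of the 424 members, 257 held UMIs of both genes. They were deeper than the other nuclei of their library, with median totals of 3152 against 2311 UMIs in day 3 replicate 1, 8316 against 3909 in day 3 replicate 2, 7187 against 2699 at day 5 and 2595 against 1303 at day 7. The part of depth in their selection was not tested beyond the thinning given above. A doublet caller marked 9 of the 424 members (2.12%) and 129 of the 7649 other nuclei (1.69%), and no member shared its barcode with a member of another library.

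Nuclei just inside and just outside the rule differed by library. The summed level of 60 genes of mitosis (mitotic kinases, kinetochore, kinesins and spindle, cytokinesis) was taken as CPM, the count scaled to the same total of UMIs in every group of nuclei. In day 3 replicate 2 it was 697 CPM in nuclei with 0 UMIs of the pair, 858 CPM with 1, 1514 CPM with 2 and 7195 CPM with 3 or more, so there the nuclei at exactly 2 lay nearer to those outside the rule. In day 3 replicate 1 the same levels were 565, 3088, 7561 and 8359 CPM. At day 5 they were 669, 2433, 5109 and 9575 CPM, and at day 7 they were 606, 2972, 7004 and 11146 CPM. In these 3 libraries the nuclei with 1 UMI lay well above those with 0, and 52, 134 and 38 such nuclei stood outside the rule, against 228 in day 3 replicate 2. The 33 DNA replication genes summed to between 391 and 489.6 CPM in nuclei with 0 UMIs of the pair and to between 1847 and 2233 CPM in members, over the 4 libraries.

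**Figure D2:**
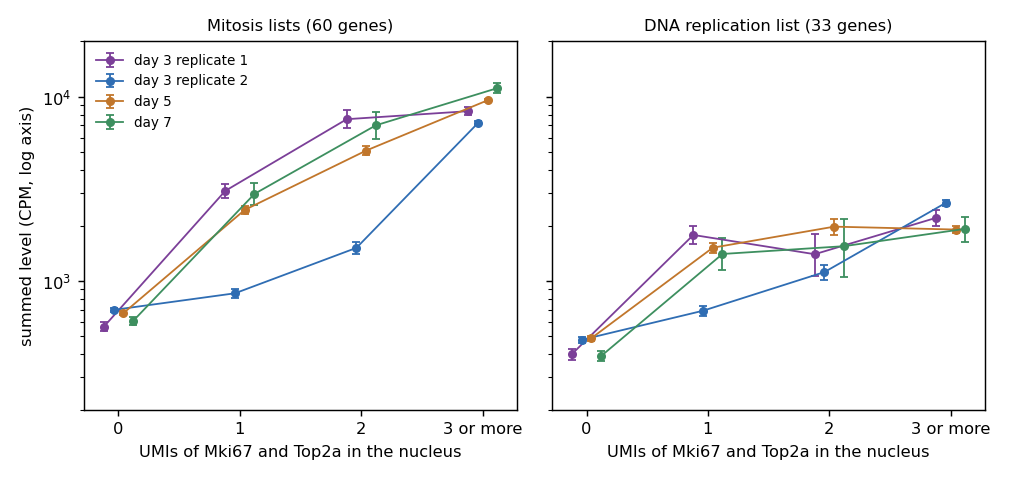
Summed level (CPM, vertical axes) of the genes of mitosis and of DNA replication in nuclei with 0, 1, 2 and 3 or more UMIs of Mki67 and Top2a (horizontal axes), by post-fracture library. Nuclei with 2 UMIs in day 3 replicate 2 had 1514 CPM of the mitosis genes, against 5109 to 7561 CPM in the other libraries.

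Most proliferating nuclei were mesenchymal. Lineage was the largest count among Col1a2 with Postn (mesenchymal), Ptprc (immune), Pecam1 (endothelial) and Col2a1 (chondrocyte). By this rule 301 of the 424 members were mesenchymal (71.0%), 53 immune (12.5%), 27 endothelial (6.37%) and 17 chondrocyte (4.01%), while 13 were tied between lineages and 13 held no UMI of these genes. With lists of marker genes in place of single markers, 283 of the 301 were again mesenchymal, 48 of the 53 immune and 23 of the 27 endothelial. The chondrocyte label held less well, since 3 of the 17 stayed chondrocyte and 13 became mesenchymal. A UMI of Col1a2 or Postn was present in 385 members (90.8%) and one of Ptprc in 112 (26.4%), and 93 members held both, 67 of them in day 3 replicate 2. Of the 7649 other nuclei 66.2% held a UMI of Col1a2 or Postn and 22.6% one of Ptprc, and in day 3 replicate 2 both were held by 799 of 1553 others, so the markers overlapped in many nuclei of that library whether proliferating or not.

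The make-up differed between libraries. Days 5 and 7 had 1 library each, so a change with time was not tested. Mesenchymal nuclei were 61.5% of the members in day 3 replicate 1 (32 nuclei) and 65.9% in day 3 replicate 2 (110 nuclei), 81.3% at day 5 (139 nuclei) and 60.7% at day 7 (17 nuclei). Immune nuclei were 13.5% and 22.2% of the members at day 3 (7 and 37 nuclei), 4.09% at day 5 (7 nuclei) and 0 of 28 at day 7. Immune members were thus found mainly at day 3, and in day 3 replicate 2 above all. The day 7 make-up depends on the barcode limits, as mesenchymal nuclei were 8.03% of its members with the wider mitochondrial and ribosomal limits. Among the other nuclei of the same libraries, mesenchymal nuclei were 27.4%, 43.1%, 65.0% and 52.3%, below their share of the members in each library. At day 7 the exact interval of the members' share (40.6 to 78.5%) covered the share of the others. Nuclei with no UMI of the lineage markers count in these shares. They were 51.8%, 5.09%, 6.48% and 19.0% of the others and 17.3%, 1.80%, 0% and 3.57% of the members. The part of depth and of muscle fibre nuclei in this gap was not tested. Immune nuclei were 12.4%, 42.7%, 12.8% and 3.02% of the others, above their share of the members in day 3 replicate 2 and at days 5 and 7. Chondrocyte nuclei by Col2a1 were 6.43% of the members at day 5 (11 nuclei) and 17.9% at day 7 (5 nuclei), against 4.17% and 17.1% of the others. The 6 uninjured members were 1 chondrocyte, 3 mesenchymal and 2 immune nuclei.

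**Figure D3:**
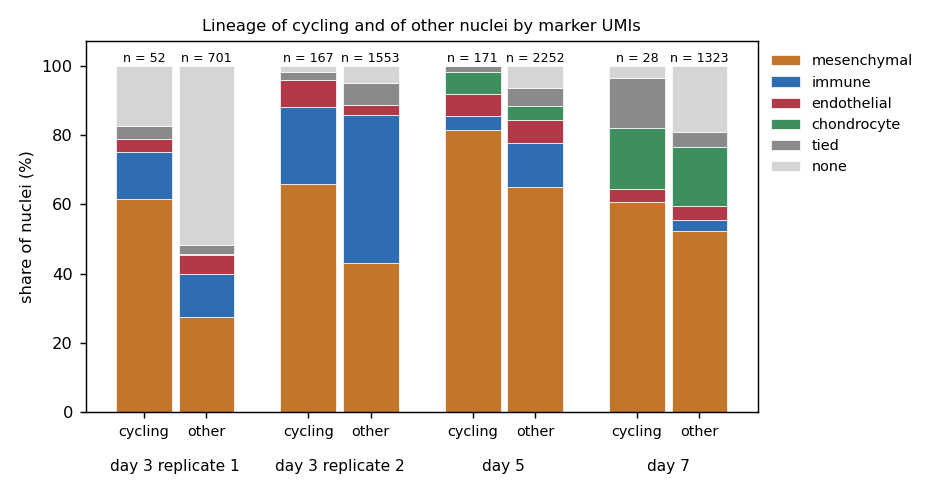
Lineage of the proliferating nuclei and of the other nuclei (% of each, vertical axis) in the 4 post-fracture libraries. Mesenchymal nuclei were 60.7 to 81.3% of the proliferating nuclei and 27.4 to 65.0% of the others.

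Within lineages, the share of mesenchymal nuclei that were proliferating was 14.3% (32 of 224, 95% interval 9.98 to 19.6%) in day 3 replicate 1 and 14.1% (110 of 779, 11.8 to 16.8%) in day 3 replicate 2. It was 8.67% (139 of 1603, 7.34 to 10.2%) at day 5 and 2.40% (17 of 709, 1.40 to 3.81%) at day 7, and 0.568% (3 of 528) in uninjured replicate 2. The mesenchymal share was thus nearly equal in the day 3 libraries and lower at each later day. Of immune nuclei, 7.45% (7 of 94, 3.05 to 14.7%) and 5.29% (37 of 700, 3.75 to 7.21%) were proliferating at day 3, 2.37% (7 of 295) at day 5 and 0 of 40 at day 7, which allows up to 8.81%. Of endothelial nuclei, 5.00% (2 of 40) and 22.4% (13 of 58, 12.5 to 35.3%) were proliferating at day 3, 7.01% (11 of 157) at day 5 and 1.79% (1 of 56) at day 7. The endothelial share differed most between the day 3 libraries and rested on few nuclei. Of chondrocyte nuclei, 10.5% (11 of 105) were proliferating at day 5 and 2.16% (5 of 231) at day 7. Thinned to 1000 UMIs, the mesenchymal shares were 16.4%, 13.1%, 7.45% and 4.19% over the 4 libraries, the immune shares 8.79%, 7.09% and 3.27% at days 3 and 5, and the endothelial shares 5.56%, 14.8%, 4.86% and 5.88%. The endothelial share of day 7 was then not below that of day 5, with 2 of 34 nuclei behind it.

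**Figure D4:**
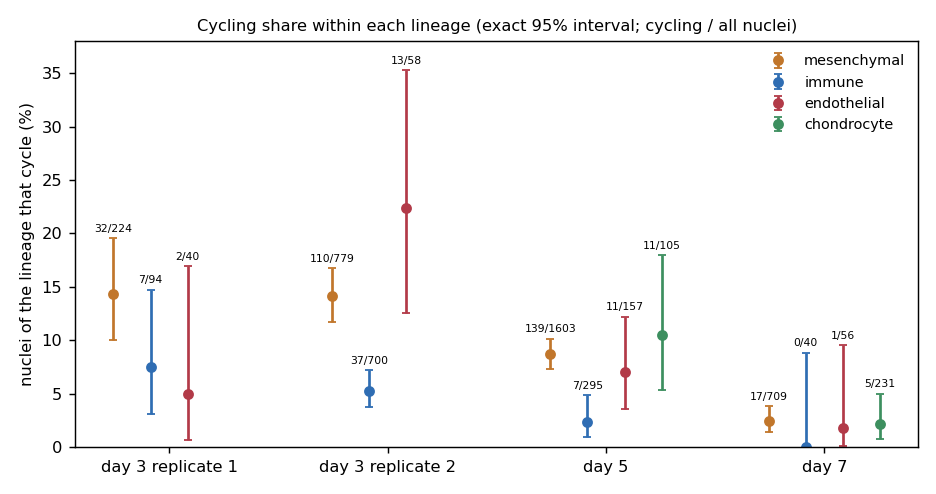
Share of the nuclei of each lineage that were proliferating (%, vertical axis) by library, with exact 95% intervals for counting error. The mesenchymal share falls from 14.3% and 14.1% at day 3 to 8.67% at day 5 and 2.40% at day 7.

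The genes of the members were compared with those of the other nuclei of the same lineage and library, on UMIs summed per library, with Mki67 and Top2a removed. The members were chosen by transcripts of the same nuclei, so these fits describe the chosen nuclei and are no independent test. A gene is called where the adjusted p of edgeR was under 0.05. The filter on low counts keeps a gene that has enough counts in the members alone. A gene near the floor in the other nuclei was therefore tested only if it was high in the members. The shares of tested genes called higher are thus no test of a list. In mesenchymal nuclei of 4 libraries 9345 genes were tested, of which 494 (5.29%) were called higher in the members and 673 (7.2%) lower, with a median log2 fold change of -0.04. Of 156 cell cycle genes in 10 lists, 134 were tested, and 117 of these were higher, 0 lower and 17 not called. In immune nuclei of 3 libraries 4840 genes were tested, with 117 higher (2.42%), 44 lower (0.909%) and a median of -0.07. There 75 of the 156 cell cycle genes were tested, of which 60 were higher, 1 lower and 14 not called. Over nuclei of every lineage together 11058 genes were tested, with 763 higher (6.9%) and 1152 lower (10.4%).

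In mesenchymal nuclei 24 of the 33 DNA replication genes were tested, and 23 of these were higher, with a median log2 fold change of 1.66. Pola1, the catalytic subunit of DNA polymerase alpha, which starts new strands with primase, had 392, 318, 377 and 315 CPM in the members of day 3 replicates 1 and 2, day 5 and day 7, and 171, 71.4, 122 and 86.2 CPM in the other nuclei. Every member level lay above every other level, and the log2 fold change was 1.58 (SE 0.18). Atad2, a chromatin ATPase of S phase, had 263, 284, 231 and 204 CPM in the members and 86.4, 56.1, 52.9 and 40.1 CPM in the others, again with no overlap, and a log2 fold change of 1.98 (SE 0.19).

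The lists of mitosis and of condensin and chromatin had larger median log2 fold changes than that of replication in the same mesenchymal fit. This order describes nuclei chosen on Mki67 and Top2a and is no independent result. Levels in the other nuclei differed as well, for example 5.20 to 25.4 CPM for Kif11 and 71.4 to 171 CPM for Pola1. All 8 mitotic kinase and checkpoint genes tested were higher (median log2 fold change 3.71), as were all 16 kinetochore and centromere genes tested (3.65), 22 of 23 kinesin and spindle genes (3.95), all 8 cytokinesis genes (3.41) and all 11 condensin and chromatin genes tested (2.34). These lists hold 12, 17, 23, 8 and 12 genes in that order, and the rest were not tested. Kif11, the motor that pushes the spindle poles apart, had 316, 195, 258 and 204 CPM in the members of day 3 replicates 1 and 2, day 5 and day 7, and 25.4, 7.78, 9.63 and 5.20 CPM in the others. Its lowest member level was thus far above its highest level elsewhere (log2 fold change 4.43, SE 0.25). Knl1, the kinetochore scaffold that recruits checkpoint proteins, had 251, 215, 303 and 409 CPM in the members and 39.0, 8.59, 18.1 and 5.94 CPM in the others, a log2 fold change of 4.10 (SE 0.31). Bub1b, a kinase-like protein of the spindle checkpoint, had 135, 87.5, 86.4 and 126 CPM in the members and 10.2, 8.32, 2.94 and 7.43 CPM in the others, a log2 fold change of 3.88 (SE 0.32). Diaph3, a formin that builds actin filaments and acts in cytokinesis, had 1018, 576, 1388 and 1541 CPM in the members and 244, 44.8, 128 and 81.7 CPM in the others, a log2 fold change of 3.21 (SE 0.26). None of these genes overlapped between members and other nuclei. They, Pola1 and Atad2 were picked for a high level in the members or a large difference. The share of all genes without overlap was not counted. Smc4, a condensin subunit that compacts chromosomes, had a smaller log2 fold change of 2.19 (SE 0.18), with 275 to 425 CPM in the members and 53.4 to 79.6 CPM in the others.

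The 10 genes with the largest positive log2 fold changes among well measured ones in mesenchymal nuclei were Depdc1a (4.96), Depdc1b (4.53), Ckap2l (4.50), Nusap1 (4.50), Shcbp1 (4.46), Lockd (4.44), Kif11 (4.43), Iqgap3 (4.42), Kif4 (4.34) and Bub1 (4.31). Nusap1 binds and bundles spindle microtubules, Kif4 is a chromosome motor, Bub1 is a checkpoint kinase, and Lockd is a long noncoding RNA next to Cdkn1b. Cdkn1b, the gene of the inhibitor p27 beside it, had a log2 fold change of 0.17 (SE 0.24) and was not called. Kif11, Lockd, Nusap1 and Depdc1b were among the 10 largest in mesenchymal nuclei, in immune nuclei and over all nuclei together. Genes of homologous recombination and repair were higher for 14 of 15 tested (median 2.70). Among them Brca1, a DNA repair gene, had a log2 fold change of 3.51 (SE 0.31).

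Among the genes that set the pace of the cycle, the counts in mesenchymal nuclei were smaller, though the lists were not compared by a test. Of 9 cyclin and cyclin-dependent kinase genes tested, 5 were higher (Ccna2, Ccnb1, Ccne2, Ccnf and Cdk6), with a median log2 fold change of 0.86. Ccnf, the cyclin F substrate receptor of a ubiquitin ligase, had a log2 fold change of 3.92 (SE 0.32). Cdk6, a G1 kinase, had 152, 181, 182 and 173 CPM in the members and 79.6, 112, 116 and 91.4 CPM in the others, a log2 fold change of 0.62 (SE 0.17) whose call was lost in 7 of the alternative analyses. Of 9 inhibitor genes tested, 2 were higher, Cdkn2c and Rbl1, with a list median of -0.14. Rb1, the retinoblastoma gene, had 81.9 to 173 CPM in the members and 89.1 to 179 CPM in the others, so the groups overlapped (log2 fold change -0.22, SE 0.21). Of 11 transcription factor genes tested, 8 were higher (median 1.45), among them Tfdp1, the dimer partner of the E2F factors (0.74, SE 0.20), whose call was lost in 6 alternatives, while E2f3 was not called (0.14, SE 0.19).

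**Figure D5:**
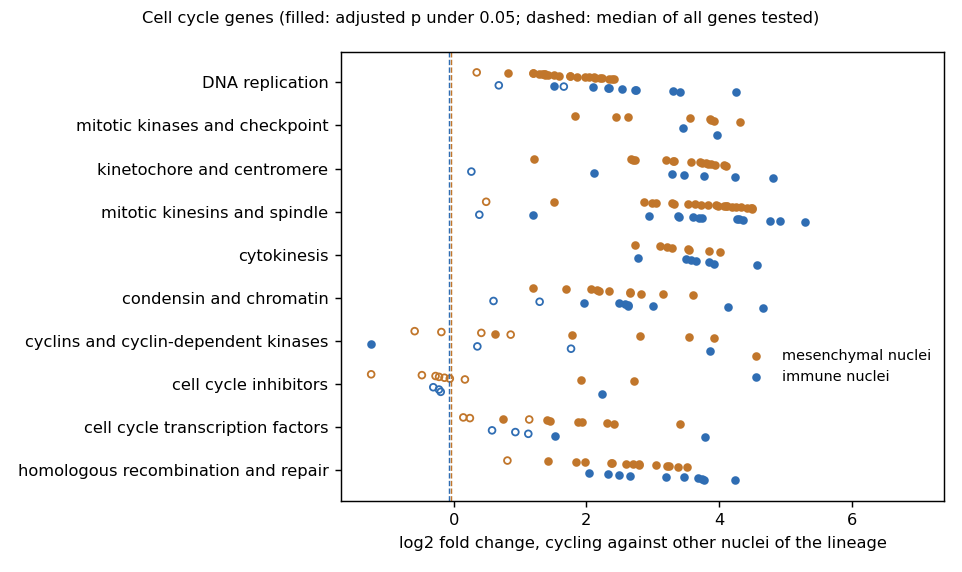
Log2 fold change of each tested cell cycle gene (horizontal axis), proliferating against other nuclei of the same lineage, by list (vertical axis) in mesenchymal and immune nuclei, with filled points for adjusted p under 0.05. Points of the 4 mitosis lists centre on 3.41 to 3.95 in mesenchymal nuclei, condensin and chromatin on 2.34, DNA replication on 1.66 and inhibitors on -0.14. The order of the lists describes nuclei chosen on Mki67 and Top2a.

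The promoters of the marker pair, of Kif11 and of Pola1 are shown because their genes stand for the selection, for mitosis and for replication. Promoters of many mitotic genes hold a cell cycle genes homology region, here the letters TTTGAA, which is bound by the DREAM and MuvB complexes, and CCAAT boxes, which are bound by NF-Y. The sequences are from RefSeq on GRCm38.p6, the 250 bases before the transcript start, 5′ to 3′ on the gene's strand. Capitals mark TTTGAA or CCAAT on either strand.
Mki67, chr7:135716380-135716629, minus strand: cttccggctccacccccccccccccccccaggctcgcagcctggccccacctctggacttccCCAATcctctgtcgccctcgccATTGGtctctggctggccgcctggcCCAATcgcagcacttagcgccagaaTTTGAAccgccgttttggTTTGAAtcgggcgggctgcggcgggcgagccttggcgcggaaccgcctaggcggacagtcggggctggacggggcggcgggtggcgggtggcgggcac
Top2a, chr11:99024190-99024439, minus strand: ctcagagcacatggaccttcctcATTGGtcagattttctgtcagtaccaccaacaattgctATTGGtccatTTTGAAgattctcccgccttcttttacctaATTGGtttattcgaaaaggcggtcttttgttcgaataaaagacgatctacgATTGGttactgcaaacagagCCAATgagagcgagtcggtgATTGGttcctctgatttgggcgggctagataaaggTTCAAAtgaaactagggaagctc
Kif11, chr19:37376132-37376381, plus strand: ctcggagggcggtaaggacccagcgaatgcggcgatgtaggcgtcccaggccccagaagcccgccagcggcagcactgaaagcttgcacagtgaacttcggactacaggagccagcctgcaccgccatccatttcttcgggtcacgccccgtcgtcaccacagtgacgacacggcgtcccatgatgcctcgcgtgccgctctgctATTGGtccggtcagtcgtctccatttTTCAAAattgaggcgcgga
Pola1, chrX:93632156-93632405, minus strand: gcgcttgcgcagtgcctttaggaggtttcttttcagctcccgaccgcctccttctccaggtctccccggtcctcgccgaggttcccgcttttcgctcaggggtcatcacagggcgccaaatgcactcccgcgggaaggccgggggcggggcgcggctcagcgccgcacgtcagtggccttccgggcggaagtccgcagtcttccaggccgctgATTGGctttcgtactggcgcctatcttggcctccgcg
Mki67 and Top2a each hold 2 matches of TTTGAA in the window, Kif11 holds 1 and Pola1 holds 0, and CCAAT occurs 3, 6, 1 and 1 times. Over windows from 250 bases before to 50 after the start, read on both strands, with overlapping matches each counted, TTTGAA occurred in 35 of 58 promoters of the mitosis lists (60.3%, from 53 of the 60 genes), in 3 of 32 promoters of DNA replication genes (9.38%, from 27 of the 33 genes) and in 5878 of all 32851 promoters (17.9%). CCAAT occurred in 41 (70.7%), 17 (53.1%) and 12289 (37.4%) of the same promoters. A match is a description of letters and no evidence of binding.

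Calls among genes that mark the mesenchymal lineage were near the share over all genes of the mesenchymal fit. None of 8 mesenchymal marker genes tested was called (median log2 fold change 0.22), and none of 5 genes of the fibrogenic list (median 0.33). Over all 9345 genes 5.29% were called higher and 7.2% lower, so 0 calls in lists this short is no result about these markers. Col1a2, an alpha chain of type I collagen, had 1796, 3161, 3574 and 1903 CPM in the members of day 3 replicates 1 and 2, day 5 and day 7, and 1188, 1758, 3481 and 2180.3 CPM in the others (log2 fold change 0.18, SE 0.18). Postn, the matricellular protein periostin, had 526, 942, 2912 and 975 CPM against 605, 639, 2615 and 1079 CPM (log2 fold change -0.03, SE 0.17). Both genes also set the lineage, and their range over the libraries was wider than the gap between members and others in any library. The day 3 libraries differed from each other too, so this spread was not assigned to time. Runx2, the osteoblast transcription factor, had 1140.4, 1501, 2038 and 2170.4 CPM in the members and 903, 489, 1672 and 1146 CPM in the others, higher in each library. Its log2 fold change was 0.64 (SE 0.19), and the call was lost in 9 alternatives, among them with muscle fibre nuclei left out (0.35). Of 4 osteoblast genes tested, Runx2 was the 1 called.

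Some markers of other states were called in the same mesenchymal fit, where 5.29% of all genes were called higher and 7.2% lower. Of 6 chondrocyte genes tested 1 was called, Col9a1, and of 3 stem and progenitor genes tested 1 was called, Pi16. Cd34 and Ly6a were not called (log2 fold changes -0.40 and -0.17). With 1 call in lists this short, these are values of single genes and no result about a state. Col9a1, a cartilage collagen chain, was higher with a log2 fold change of 1.32 (SE 0.29), from 187 against 59.4 CPM at day 5 and 220.2 against 80.2 CPM at day 7, while at day 3 it had at most 5.21 CPM. Pi16, a marker of periosteal stem and progenitor cells, was lower with a log2 fold change of -2.49 (SE 0.63). It had 0, 6.25, 0 and 15.7 CPM in the members and 8.47, 15.3, 20.1 and 12.6 CPM in the others, so the direction was opposite at day 7, where the members' value is a single UMI. Notch3, a receptor of mural cells, was higher with a log2 fold change of 1.17 (SE 0.25), as was Rgs5, a pericyte marker, with 1.52 (SE 0.34), but Abcc9 of the same list was lower with -1.60 (SE 0.30). Of that list 4 genes were tested, and all 3 calls were lost without day 3 replicate 2 (0.95, 1.11 and -1.11).

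The largest negative differences in mesenchymal nuclei were led by genes of muscle. All 6 muscle fibre (myofibre) markers tested were lower in the members (median log2 fold change -2.90). Their summed level was 2290.2, 2527, 276 and 139.9 CPM in the members of day 3 replicates 1 and 2, day 5 and day 7, and 10304, 12647, 1890 and 4916 CPM in the others. The 10 most negative were Myh4 (-6.55), Agbl1 (-5.73), Ampd1 (-4.91), Myh1 (-4.88), Asb14 (-4.48), Fbxo40 (-4.31), Mylk2 (-4.18), Art1 (-4.12), Igfn1 (-4.06) and Trp63 (-3.99). Myh4 and Myh1 encode fast muscle myosins and Mylk2 the skeletal muscle myosin light chain kinase. With muscle fibre nuclei left out, 2 of these 10 genes were tested, Agbl1 and Trp63, both still called lower, and the number of genes called lower went from 673 to 351. Of 6 general immune markers, 3 were lower in mesenchymal members, Inpp5d, Laptm5 and Myo1f, with a median log2 fold change of -0.85 over the list.

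Macrophage was the most frequent class of immune proliferating nuclei by marker lists. Of the 37 in day 3 replicate 2, 18 were assigned to the macrophage list, 12 to the neutrophil list, 4 to the monocyte list and 1 to that of granulocyte precursors. The other 2 were assigned to none. Macrophage was also the leading list in 5 of 7 immune members of day 3 replicate 1 and in 4 of 7 at day 5. No gene of the general immune list (6 tested) or the macrophage list (5 tested) was called in immune nuclei. Of all 4840 genes of that fit 2.42% were called higher and 0.909% lower, so this is no result about these markers. Mrc1, the macrophage mannose receptor, had 1250.1, 1048 and 907 CPM in the members and 1098, 1133 and 764 CPM in the others at day 3 and day 5 (log2 fold change -0.06, SE 0.26). Csf3r, the G-CSF receptor of the neutrophil lineage, was lower, with 50.003, 320.3 and 22.7 CPM against 79.2, 741 and 146 CPM (log2 fold change -1.40, SE 0.39). Ptprc, which set the lineage, was not called (-0.83, SE 0.27).

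The immune members, 51 nuclei over the 3 libraries of that fit, also had higher levels of most cell cycle genes tested. Against other immune nuclei matched on total UMIs, 0 genes were higher and 0 lower (59 at an unadjusted p under 0.05 in edgeR). That comparison tested only 1007 genes, against 4840 in the main fit, so most genes of the main fit were not tested in it. Without day 3 replicate 2, 2926 genes were tested, with 72 higher and 14 lower. The largest fitted log2 fold changes were those of Ticrr (5.89), a regulator of replication origin firing, Depdc1b (5.84) and Kif18b (5.30), a kinesin of microtubule ends. For these 3 genes the other immune nuclei had 0 UMIs in day 3 replicate 1 and at day 5, so the fitted sizes and their order depend on the prior count. Neil3, a DNA glycosylase (5.13), and Lockd (5.02) had UMIs in both groups of every library. Kif11 had 450.02, 100.3 and 499 CPM in the members and 26.4, 5.64 and 2.86 CPM in the others (log2 fold change 4.76, SE 0.51). Ccnd3, cyclin D3, was the cell cycle gene called lower, with 350.02, 327 and 136 CPM in the members and 818, 682 and 305 CPM in the others (log2 fold change -1.25, SE 0.32). In mesenchymal nuclei Ccnd3 was not called (-0.59, SE 0.21), and it is not among the genes for which the difference between the lineages was called.

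Muscle genes were lower in immune members too, with a summed level of the myofibre list of 743, 992 and 67.4 CPM against 3148, 1537 and 379.9 CPM in the others. Among the 10 most negative genes were Trim63 (-3.96), a muscle ubiquitin ligase, Mybpc1 (-3.38), a myosin-binding protein, and Trdn (-3.28), which anchors the calcium release complex of muscle. Ttn was called lower (-1.25, SE 0.33), but its sign turned to 0.53 against nuclei matched on total UMIs and to 1.07 with muscle fibre nuclei left out.

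The difference between mesenchymal and immune nuclei was tested directly, as an interaction of lineage with membership in edgeR over day 3 and day 5. Of 9666 genes, 12 (0.124%) had a larger log2 fold change in mesenchymal and 11 (0.114%) in immune nuclei, and DESeq2 called 0 (350 genes at an unadjusted p under 0.05). One cell cycle gene was among them, Ncapg2 of the condensin II complex, named after its values were seen, with a difference of 1.82 (SE 0.44, edgeR adjusted p = 0.0337). Camp, an antimicrobial peptide gene of maturing granulocytes, had a difference of -4.06 (SE 0.69, edgeR adjusted p = 0.00033). Its 191 UMIs in immune members lay in 9 of the 37 of day 3 replicate 2, with 618 CPM against 17.7 CPM in the other immune nuclei, and the immune members of the other libraries had 0. S100a8, a calcium-binding protein of neutrophils, had 92 UMIs in 13 of the same 37 nuclei, 298 CPM against 53.7 CPM, and a difference of -3.64 (SE 0.79, edgeR adjusted p = 0.014). Both differences therefore rest on 1 library.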

How the data were processed

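Single-nucleus RNA sequencing was done by the authors on 6 libraries of Sytox-AAD+ nuclei, and the deposited values are raw UMI counts per gene and barcode, intronic and exonic reads together. The submitters' processing notes name Cell Ranger 6.0.0 for uninjured replicate 1, day 5 and day 7 and 7.1.0 for uninjured replicate 2 and day 3, and the build mm10, while a protocol label names a human reference. The 30406 genes shared by all libraries were used. A barcode was kept if it had between 200 and 5000 genes and less than 2% of its UMIs from mitochondrial and less than 1.5% from ribosomal protein genes. Scrublet in scanpy 1.11.5 (expected rate 6%) marked doublets, which were kept and removed in an alternative. Proliferating nuclei, lineages and gene lists were chosen with earlier results of these data known. Counts were summed per library, lineage and membership, and tested with edgeR 4.0.16 (R 4.3.3; filterByExpr, TMM, glmQLFit and glmQLFTest) with the library as a block. Benjamini-Hochberg adjustment ran over all genes tested. Libraries needed 10 proliferating nuclei, and 5 for immune nuclei and for the difference between lineages, a limit lowered after the data were seen because 10 left 1 library.

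Named genes were the 10 most positive and 10 most negative log2 fold changes among called genes whose higher arm averaged at least 50 CPM and whose sign was equal in all libraries, 5 in each direction for the difference between lineages, and genes of the lists. Counts were also simulated at a log2 fold change of 2. Of the changed genes tested, 187 of 192 were called over all nuclei, 175 of 176 in mesenchymal and 151 of 170 in immune nuclei. False calls numbered 9, 3 and 7 in that order. Every simulated gene had the same dispersion, so recovery of genes whose UMIs lie in few nuclei was not tested. Alternatives were DESeq2 1.42.0, other scalings, filters, thresholds and lineages, comparison nuclei matched on total UMIs, no block, and each library left out. Leaving out muscle fibre nuclei was added after the data were seen. Gene coordinates are those of GENCODE vM21 on GRCm38, and promoters came from RefSeq GRCm38.p6. Python 3.11.15 was used for all other steps. A gene of the repair list is not reported here.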

Additional observations from a re-analysis of the deposited data

Results flagged for a closer look

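The difference between proliferating and other nuclei was tested between mesenchymal and immune nuclei, and the 10 genes below passed that test in edgeR with the largest differences in each direction (log2, mesenchymal minus immune). DESeq2 called 0 genes, with 350 at an unadjusted p under 0.05. Atf7ip2 had a difference of 11.20 and Gm11290 one of 8.96. Both had 0 UMIs in every immune proliferating nucleus of the 3 libraries, so these fitted values depend on the prior count and are no bound. Zfp366 had a difference of 3.51, with 4 UMIs in 2 immune members of day 3 replicate 2 and 2 UMIs in 1 at day 5. Sgcd, a sarcoglycan of the muscle membrane, had a difference of 3.33, and Bicc1, an RNA-binding protein, one of 3.14. These too rest on few UMIs in immune members. In day 3 replicates 1 and 2 and day 5 these held 1, 1 and 1 UMI of Sgcd and 0, 1 and 2 of Bicc1.

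In the other direction, Camp had a difference of -4.06, Atp6v0d2, a proton pump subunit of osteoclasts, one of -3.91, Slc25a21 one of -3.77, S100a8 one of -3.64 and Megf10 one of -2.98. The Slc25a21 value rests on 30 UMIs in a single immune nucleus of day 3 replicate 2, and that of Atp6v0d2 on 20 of 23 UMIs in 1 nucleus at day 5 beside 10 UMIs in 2 nuclei of day 3 replicate 2. Megf10 had 16 UMIs in 7 immune nuclei of day 3 replicate 2 and 0 in the other libraries.

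Barcodes outside the limits also met the rule. In day 3 replicate 2, 54.7% of the 245 barcodes with over 5000 genes (134, exact 95% interval 48.2 to 61.0%) were proliferating by it, of which 108 were mesenchymal, 21 immune and 5 endothelial. Their median total was 29410 UMIs and the highest 239686, and the doublet caller marked 3 of the 245 and 0 of the 134. At day 7, 10.6% of the 2093 barcodes over the mitochondrial or ribosomal limits (221, 9.27 to 12.0%) met the rule. Of these 221, 202 held no UMI of the 4 lineage markers (91.4%) and 15 were chondrocyte by Col2a1, with a median of 958 UMIs and a median ribosomal share of 15.9%. The part of depth and ribosomal RNA in these shares was not tested.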

How the results depend on the processing

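The share of proliferating nuclei moved with the rule. With a sum of 1 or more UMIs, a sum of 3 or more, or at least 1 UMI of each gene, the difference between day 3 and uninjured was 17.3, 5.67 and 4.88 percentage points, the day 5 share 12.6%, 5.20% and 4.42%, and the day 7 share 4.89%, 1.26% and 1.18%. Thinned to 500 UMIs, the difference was 5.62 points and day 5 had 3.52%. Thinned to 1000 UMIs, day 7 had 3.59%. The difference was 10.8 points with no upper limit on genes, 11.2 points with muscle fibre nuclei left out, and 6.62 to 9.42 points with 1 library left out. With the wider mitochondrial and ribosomal limits day 7 had 7.23%, and mesenchymal nuclei were 8.03% of its members. At day 3 mesenchymal nuclei were 59.9% of the members with 2 lineage UMIs asked for, 67.3% with no upper limit, and 61.5 to 65.9% with 1 library left out, and immune nuclei 13.5 to 22.2%.

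Genes called higher over all nuclei numbered 277 without the library block and 390 against nuclei matched on total UMIs, and genes called lower 133 and 360, and 767 with the wider limits. In mesenchymal nuclei 216 were higher and 62 lower without the block, 302 and 310 against matched nuclei, and 351 lower without muscle fibre nuclei. In immune nuclei 49 were higher and 1 lower without the block, and 184 higher with 2 lineage UMIs. Against matched nuclei, 0 of only 1007 genes tested were called in either direction (59 at an unadjusted p under 0.05 in edgeR). Immune genes called lower numbered 14 in DESeq2, 81 without a filter on low counts, 73 with a sum of 3 or more and 26 without muscle fibre nuclei. For the difference between lineages, the 23 calls became 0 in DESeq2, 0 without the block (261 at an unadjusted p under 0.05), 11 against matched nuclei, 67 with a sum of 3 or more, 127 with no upper limit and 36 with the wider limits. Fewer nuclei enter the matched comparison. For the other changes the cause was not tested.

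Leaving out 1 library gave 512 to 741 genes higher and 665 to 916 lower over all nuclei, 275 to 501 and 307 to 546 in mesenchymal nuclei, 72 to 176 and 14 to 58 in immune nuclei, and 8 to 10 for the difference between lineages. Counts moved most without day 3 replicate 2 (316 higher and 307 lower in mesenchymal nuclei, 72 and 14 in immune nuclei, 665 lower over all nuclei) and without day 5 (275 and 431 in mesenchymal nuclei), and without day 3 replicate 1 immune nuclei had 176 higher. TMM put the median difference between lineages at 0.25 and median-of-ratios scaling at 0.01.

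Among genes named and called in the main or the alternative fit, none changed direction in mesenchymal nuclei or over all nuclei. Sign changes of genes called in neither fit were not counted. Bicc1 (-0.32) and Atp6v0d2 (0.68) reversed with no upper limit, Megf10 without day 3 replicate 2 (-3.87 to 5.52 with 1 library left out), and Ttn in immune nuclei against matched nuclei (0.53) and without muscle fibre nuclei (1.07). No paired analysis was possible because a replicate number of one time point names no sample of another. Small shares, lineages of few nuclei and the immune comparison are limited by depth and by the number of nuclei.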

Other observations

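The balance of mitosis over replication transcripts in the proliferating nuclei differed between libraries. The UMIs of the 60 genes of mitosis divided by those of the 33 genes of DNA replication came to 3.99 in day 3 replicate 1, 2.52 in day 3 replicate 2, 4.63 at day 5 and 5.59 at day 7. The day 3 libraries differed from each other, and day 5 and day 7 had 1 library each, so no change with time was tested. In the members of these libraries the genes of mitosis summed to 8217, 5622, 8871 and 10330 CPM and those of replication to 2062, 2233, 1915 and 1847 CPM.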
